A study of Homo sapiens with 12 samples.

Results

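VIL1, CDH17, GPA33, CEACAM5, CEACAM6, LGALS4, MUC2 and FABP1 mark differentiated intestinal epithelium, and these 8 were examined for 3 histone H3 marks in 4 related human colorectal cancer cell lines. Members were all regions of the deposited tables that overlap one of the 8 genes or the 2 kb on either side of it. This gave 7 of 36400 H3K4me3 regions, 8 of 50000 H3K27me3 intervals and 4 of 157878 H3K79me3 regions. The tables hold 12 ChIP-seq libraries, 1 per line and mark, so no line has a replicate. SA is a mesenchymal DLD1 derivative obtained from colonies in soft agar. SPH is a mesenchymal derivative obtained from colonospheres. METS is an epithelial derivative obtained from a lung metastasis of a xenograft. DLD1 is the epithelial parental line. All 4 were kept in the same serum-containing medium, and the sources used here do not say whether a derivative is 1 clone. The study set the lines beside each other to follow chromatin through colon cancer progression.

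The intestinal epithelium renews itself from crypt stem cells, whose daughters mature into absorptive enterocytes, mucus-secreting goblet cells and other cell types. Homeobox factors of the CDX family and hepatocyte nuclear factors switch on the genes of mature gut cells, and colorectal tumours keep part of this programme. H3K4me3 sits at active promoters, H3K79me3 lies over the bodies of transcribed genes, and H3K27me3 is laid down by Polycomb complexes at silenced genes. In chromatin from whole cultures, fewer cells with a mark and less of the mark per cell cannot be told apart. RNA was not analysed here, so whether the genes are expressed in these lines was not measured.

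Total counts ranged from 6722508 to 7753937 for H3K4me3, from 15605814 to 20410151 for H3K27me3 and from 6165169 to 7521451 for H3K79me3. Values are CPM, each count scaled to the total of its library. Ratios carry exact 95% intervals that cover counting error only. The H3K27me3 table was held in part and ended on chromosome 19 at base 33793470, before LGALS4, CEACAM5 and CEACAM6, whose H3K27me3 was not analysed here. Positions of regions are on build hg19.

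The 6 genes in the RefSeq promoter table (build GRCh38.p14) allowed the 250 bases upstream of the gene start to be read. The table has no entry for VIL1 or CDH17. The sequences that follow are those of CEACAM5, CEACAM6, MUC2 and FABP1. CEACAM5 and CEACAM6 are paralogues, of which only CEACAM5 had an H3K4me3 region within 2 kb. MUC2 and FABP1 had the densest H3K27me3 among the 5 genes analysed for that mark, which leave out CEACAM5 and CEACAM6. Each line runs 5′ to 3′, and capitals mark the letters TTTAT, the core of CDX binding sites, or its reverse complement ATAAA.
CEACAM5: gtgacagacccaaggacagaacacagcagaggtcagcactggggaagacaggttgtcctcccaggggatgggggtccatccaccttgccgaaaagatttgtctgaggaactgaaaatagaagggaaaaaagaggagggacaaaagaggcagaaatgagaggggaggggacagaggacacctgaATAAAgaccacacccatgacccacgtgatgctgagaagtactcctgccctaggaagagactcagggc
CEACAM6: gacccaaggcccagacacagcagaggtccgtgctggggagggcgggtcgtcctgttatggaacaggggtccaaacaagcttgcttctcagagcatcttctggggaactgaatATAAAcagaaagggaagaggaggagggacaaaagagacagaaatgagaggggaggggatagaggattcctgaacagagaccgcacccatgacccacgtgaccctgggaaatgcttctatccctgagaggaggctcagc
MUC2: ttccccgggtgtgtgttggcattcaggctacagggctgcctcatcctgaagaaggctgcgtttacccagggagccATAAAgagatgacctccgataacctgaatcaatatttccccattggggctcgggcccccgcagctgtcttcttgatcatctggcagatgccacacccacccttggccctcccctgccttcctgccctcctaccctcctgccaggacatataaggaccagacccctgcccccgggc
FABP1: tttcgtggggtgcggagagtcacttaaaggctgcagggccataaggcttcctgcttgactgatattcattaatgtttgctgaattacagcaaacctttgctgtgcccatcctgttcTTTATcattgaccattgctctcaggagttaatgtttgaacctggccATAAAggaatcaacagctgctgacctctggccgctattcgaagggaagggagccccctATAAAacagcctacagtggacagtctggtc

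These windows lie at chr19:41708376-41708625 (plus strand), chr19:41755280-41755529 (plus), chr11:1074624-1074873 (plus) and chr2:88128063-88128312 (minus), in the order shown. CEACAM5 and CEACAM6 share 190 of the 242 bases that align without a gap, 78.5% identity. FABP1 holds the CDX core 3 times, and CEACAM5, CEACAM6 and MUC2 hold it once each. LGALS4 and GPA33 have no match in this window. Of all 35116 promoters in the table, 32.7% hold the core in the same window on either strand. The TATAAA motif, which contains ATAAA and so overlaps the core, occurs in FABP1 and CEACAM6 and in 10.7% of all promoters. GTTAAT, a half-site of HNF1, occurs only in FABP1 among the 6 windows read and in 6.23% of all promoters. CG dinucleotides number 2 in CEACAM5, 5 in CEACAM6, 6 in MUC2, 4 in FABP1, 6 in LGALS4 and 0 in GPA33, against a median of 11 over all promoters. With 6 of the 8 genes in the table, under the 80% set as a minimum, the gene set was not tested against other promoters. The values over all promoters are given as a description only.

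Counted H3K4me3 regions at the 8 genes were weak and mostly lay away from the annotated starts. VIL1, which bundles actin in the microvilli of enterocytes, was the one gene with an H3K4me3 region over its start. The CEACAM5 region lay upstream, at positions -1853 to -1435 relative to the start. The regions of MUC2, GPA33 and CDH17 lay inside the genes, 7.78 kb or more downstream of the start. CEACAM6, a surface glycoprotein related to carcinoembryonic antigen, LGALS4, a galactose-binding lectin of the gut, and FABP1 had no region within 2 kb, and the nearest lay 48.3, 18.3 and 42.2 kb away from these genes. Per kb of region, the 7 H3K4me3 regions ranked between percentiles 5.40 and 31.5 of all regions with a count. Their mean over the lines was 0.617 to 6.42 CPM, and the median region of the whole table had 17.4 CPM.

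**Figure D1:**
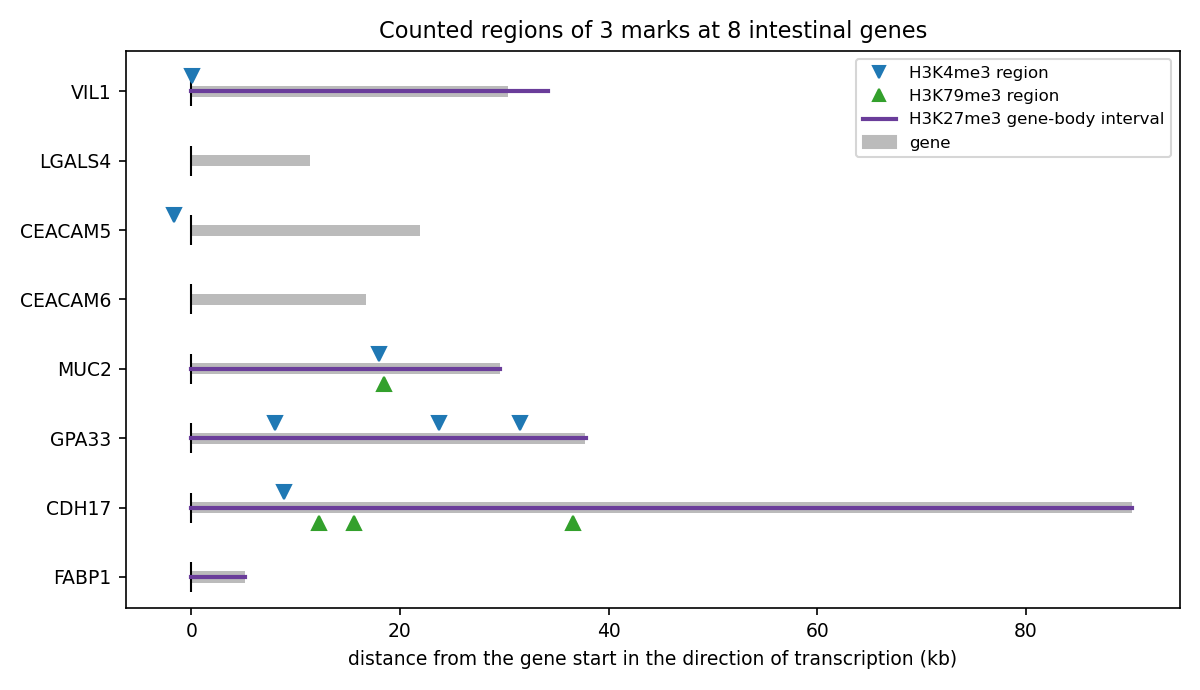
Position of the counted H3K4me3 and H3K79me3 regions and of the H3K27me3 gene-body intervals at the 8 genes. The horizontal axis is the distance from the gene start in kb along the direction of transcription, grey bars are the genes and black ticks their starts. VIL1 alone has an H3K4me3 region over its start, and LGALS4 and CEACAM6 have no counted H3K4me3 or H3K79me3 region. Gene bodies at LGALS4, CEACAM5 and CEACAM6 were not analysed for H3K27me3, and the other 3 H3K27me3 intervals are not drawn.

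CEACAM5 encodes carcinoembryonic antigen, a cell-surface glycoprotein of colonic epithelium that is used as a tumour marker in blood. Its upstream region chr19:42210651-42211069 had 22 counts (2.84 CPM) in SA, 33 (4.61 CPM) in SPH, 69 (9.45 CPM) in METS and 59 (8.78 CPM) in DLD1. Both mesenchymal lines lay below both epithelial lines. SA was 3.09-fold below DLD1 (1.87 to 5.30) and SPH was 1.90-fold below it (1.22 to 3.01). METS differed little from DLD1, with a ratio of 1.08 (0.749 to 1.55). METS was 3.33-fold above SA (2.03 to 5.65) and 2.05-fold above SPH (1.33 to 3.20). How reads that match both CEACAM5 and a paralogue were counted is not given in the sources used here.

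CDH17, an intestinal cadherin of the lateral membrane, showed the opposite order. The region chr8:95220391-95220803, 8.73 to 9.14 kb downstream of the annotated start, had 36 counts (4.64 CPM) in SA, 66 (9.23 CPM) in SPH, 26 (3.56 CPM) in METS and 20 (2.98 CPM) in DLD1. SPH stood highest, 3.10-fold above DLD1 (1.86 to 5.40) and 1.99-fold above SA (1.31 to 3.07), and METS was at 0.386 times SPH (0.235 to 0.616). The ratio to DLD1 was 1.56 in SA (0.880 to 2.84) and 1.20 in METS (0.643 to 2.26), and both intervals include 1. METS was at 0.767 times SA (0.445 to 1.31), an interval that includes 1 as well, so only SPH stood apart beyond counting error. RefSeq lists 14 transcripts for CDH17, and whether one of them starts at this region was not analysed here.

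The VIL1 region chr2:219283734-219284192 spans the gene start but was close to empty. It had 4 counts in SA, 5 in SPH, 14 in METS and 3 in DLD1, or 0.516, 0.699, 1.92 and 0.446 CPM. METS was highest, at 4.30 times DLD1, with an interval of 1.20 to 23.3 that reflects the few counts. Against SPH the ratio of METS was 2.74 (0.934 to 9.73).

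GPA33 encodes a surface antigen of the gut epithelium that is a target of antibodies in colorectal cancer. Its 3 regions lay at 8.0, 23.7 and 31.5 kb into the gene. The first had 2.58, 2.52 and 2.60 CPM in SA, SPH and METS and 2.38 CPM in DLD1, a spread of 1.09 times between the highest and the lowest line. The second had 4.26, 4.33 and 3.29 CPM in SA, SPH and METS and 3.87 CPM in DLD1. At the third, chr1:167028157-167028585, SPH had 4 counts, against 13 in SA, 16 in METS and 12 in DLD1. SPH was at 0.313 times DLD1 there, and the interval of 0.0736 to 1.03 includes 1. MUC2, the secreted gel-forming mucin of goblet cells, had 5 counts in SA, 3 in SPH, 7 in METS and 3 in DLD1 at chr11:1092681-1093026, and no difference was detectable at this depth.

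**Figure D2:**
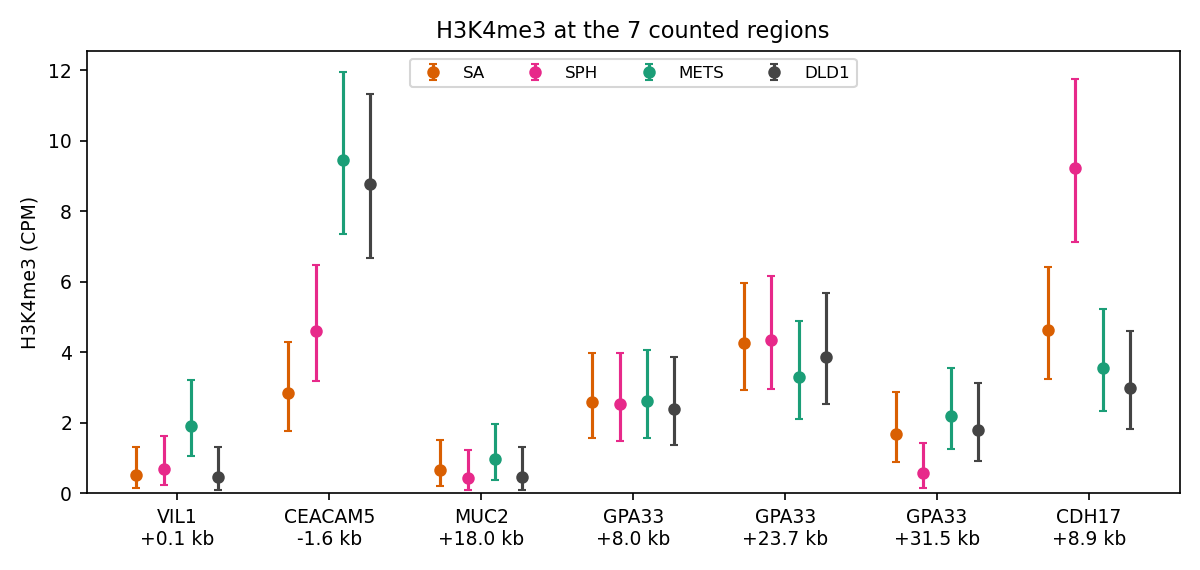
H3K4me3 in CPM at the 7 regions in SA, SPH, METS and DLD1, with the distance of each region's centre from the gene start. Points are single libraries and bars are exact 95% Poisson intervals. CEACAM5 is at 2.84 and 4.61 CPM in SA and SPH and at 9.45 and 8.78 CPM in METS and DLD1, and CDH17 is highest in SPH at 9.23 CPM.

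A region was called different from DLD1 when its log2 ratio, with 0.5 CPM added to both values, passed 2-fold. In SA, 1 of the 7 H3K4me3 regions was called, the lower CEACAM5 region, where 2.69% of all regions were called in either direction. In SPH, 2 were called, the higher CDH17 region and the lower GPA33 region at 31.5 kb, beside 7.07% of all regions. In METS, 1 was called, the higher VIL1 region, beside 5.11% of all regions. These shares were not matched for level, since the 7 regions had means of 0.617 to 6.42 CPM and the median region had 17.4 CPM. The counts of 1 or 2 of 7 can therefore not be read as an excess. The median log2 ratio of the 7 was 0.10 in SA, 0.07 in SPH and 0.22 in METS, and over all regions it was -0.01, 0.02 and 0.00. The intervals of the CEACAM5, CDH17 and VIL1 ratios exclude 1, and that of GPA33 includes it.

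H3K27me3 had been counted over whole gene bodies. Per kb, its level differed between the genes far more than between the lines. The gene-body intervals also differed in length, from 5126 bases at FABP1, the densest, to 90133 at CDH17, the least dense. The percentiles below were not matched for length, and the part of length or background in this order was not tested. FABP1, a fatty acid binding protein of enterocytes and liver, had the most, with 2.45 CPM per kb in SA, 1.98 in SPH, 1.89 in METS and 2.11 in DLD1, percentile 91.8 of all intervals by the mean. MUC2 followed with 0.751 CPM per kb in SA, 0.559 in SPH, 0.751 in METS and 0.776 in DLD1, percentile 70.5. GPA33 had 0.385, 0.377 and 0.430 CPM per kb in SA, SPH and METS and 0.373 in DLD1, percentile 52.8. VIL1 had 0.276, 0.281 and 0.278 CPM per kb in SA, SPH and METS and 0.345 in DLD1, percentile 43.2. CDH17 had the least, 0.196, 0.223 and 0.222 CPM per kb in SA, SPH and METS and 0.210 in DLD1, percentile 30.1. The ranges of neighbouring genes in this order did not overlap over the 4 lines, but the counting intervals of GPA33 and VIL1 overlapped in DLD1, and those of VIL1 and CDH17 overlapped in SPH and METS.

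Between lines, the clearest H3K27me3 difference was at MUC2. The interval chr11:1074875-1104419, which equals the gene, had 419 counts in SA, 337 in SPH, 450 in METS and 358 in DLD1. SPH was the low line, at 0.720 times DLD1 (0.618 to 0.838) and 0.745 times SA (0.643 to 0.861), and SA and METS were both at 0.967 times DLD1. The nearest H3K27me3 interval beyond the flank of MUC2, 19.6 kb away, was lower still in SPH, at 0.319 times DLD1 (0.179 to 0.547). In SPH the nearest such interval of VIL1 was at 0.495 times DLD1 (0.276 to 0.871) and that of CDH17 at 1.005 times (0.696 to 1.46). A low SPH value was thus not particular to MUC2, and its cause was not tested. VIL1 had 178 counts in SA, 196 in SPH, 193 in METS and 184 in DLD1 over chr2:219283815-219318018. Its ratios to DLD1 were 0.799 (0.647 to 0.987), 0.815 (0.663 to 1.001) and 0.807 (0.656 to 0.993) in SA, SPH and METS, and all of these share the DLD1 library. With TMM factors the VIL1 log2 ratio in SA was -0.18 in place of -0.32. FABP1, GPA33 and CDH17 had ratios to DLD1 between 0.897 and 1.16 over their gene bodies, each with an interval that includes 1. Against SA, FABP1 was at 0.809 times in SPH (0.668 to 0.978) and at 0.774 times in METS (0.638 to 0.939).

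The other 3 H3K27me3 intervals were not gene bodies of the 8 genes. One of 118111 bases begins 787 bases beyond the end of VIL1, where the next coding gene in RefSeq order is USP37, and had a ratio to DLD1 of 0.802 in SA (0.675 to 0.953), 1.02 in SPH (0.873 to 1.20) and 0.935 in METS (0.794 to 1.10). Another of 5992 bases overlaps the end of GPA33, and one of 1140 bases lies inside CDH17 with 14 counts in SA, 9 in SPH, 13 in METS and 5 in DLD1. Both overlap the gene-body intervals of GPA33 and CDH17. The intervals at GPA33 and CDH17 are therefore not independent measurements. The interval beyond VIL1 shares only its first part with the VIL1 gene-body interval, which runs 3831 bases past the end of VIL1. Most of its 118111 bases lie outside that interval and outside VIL1.

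**Figure D3:**
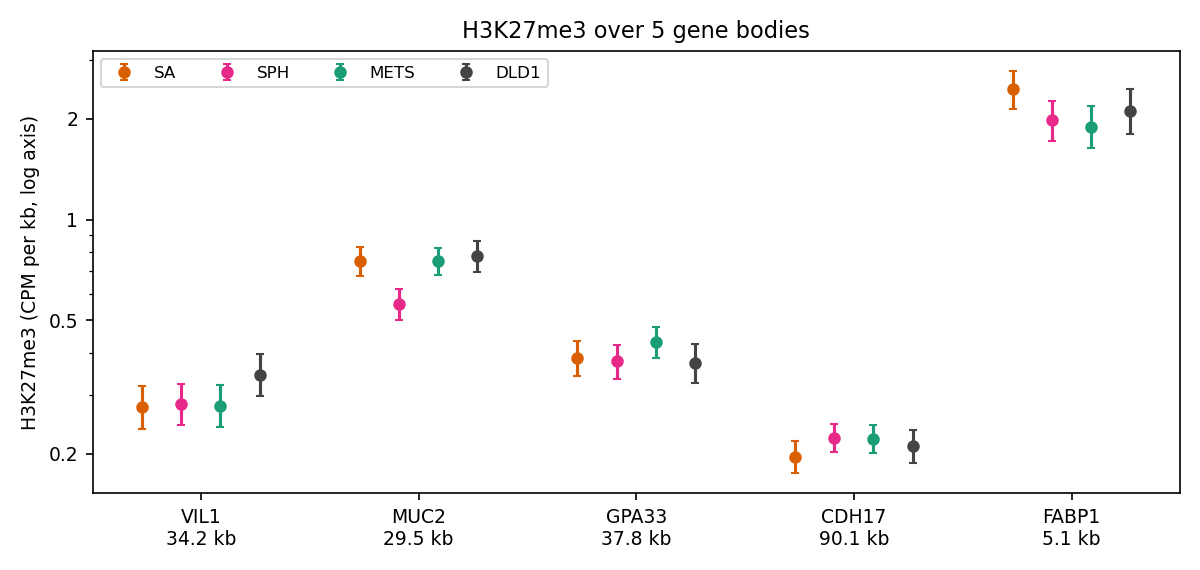
H3K27me3 in CPM per kb on a log axis over the 5 gene bodies available, with the length of each interval, in SA, SPH, METS and DLD1. Points are single libraries and bars are exact 95% Poisson intervals. FABP1 stands at 1.89 to 2.45 CPM per kb and CDH17 at 0.196 to 0.223, and the SPH point of MUC2 lies below its other lines.

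No H3K27me3 interval of the 8 was called at 2-fold in SA, SPH or METS, where 0.817%, 2.15% and 1.27% of all intervals were called in either direction. The median log2 ratio of the 8 was 0.00 in SA, -0.04 in SPH and -0.07 in METS, and over all intervals it was -0.08, -0.07 and -0.01.

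H3K79me3 had been counted at CDH17 and MUC2 alone. At CDH17 it was lowest in METS at all 3 regions, beyond counting error against DLD1 at the first alone. The first, chr8:95217064-95217472, 12.1 kb into the gene, had 54 counts (7.42 CPM) in SA, 60 (9.73 CPM) in SPH, 15 (2.33 CPM) in METS and 54 (7.18 CPM) in DLD1. METS was at 0.325 times DLD1 (0.170 to 0.584), 0.314 times SA (0.165 to 0.565) and 0.240 times SPH (0.126 to 0.427). This region ranked at percentile 68.8 of all H3K79me3 regions per kb.

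The second CDH17 region had 14 counts in SA, 17 in SPH, 7 in METS and 13 in DLD1, and the third had 16, 12 and 5 in SA, SPH and METS and 9 in DLD1. METS was at 0.630 times DLD1 at the second (0.213 to 1.70) and at 0.650 times DLD1 at the third (0.171 to 2.16), and both intervals include 1. SPH was at 1.36 times DLD1 at the first region (0.923 to 1.995), 1.60 times at the second (0.730 to 3.57) and 1.63 times at the third (0.629 to 4.37), and these intervals include 1 as well. In METS the H3K4me3 region of CDH17 and its H3K27me3 gene body stood at 1.20 and 1.05 times DLD1. The nearest H3K79me3 region outside the gene, 42.9 kb away, was also low in METS, with 14 counts, against 35 in DLD1, a ratio of 0.468 (0.233 to 0.892). Its part in the CDH17 difference was not tested.

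**Figure D4:**
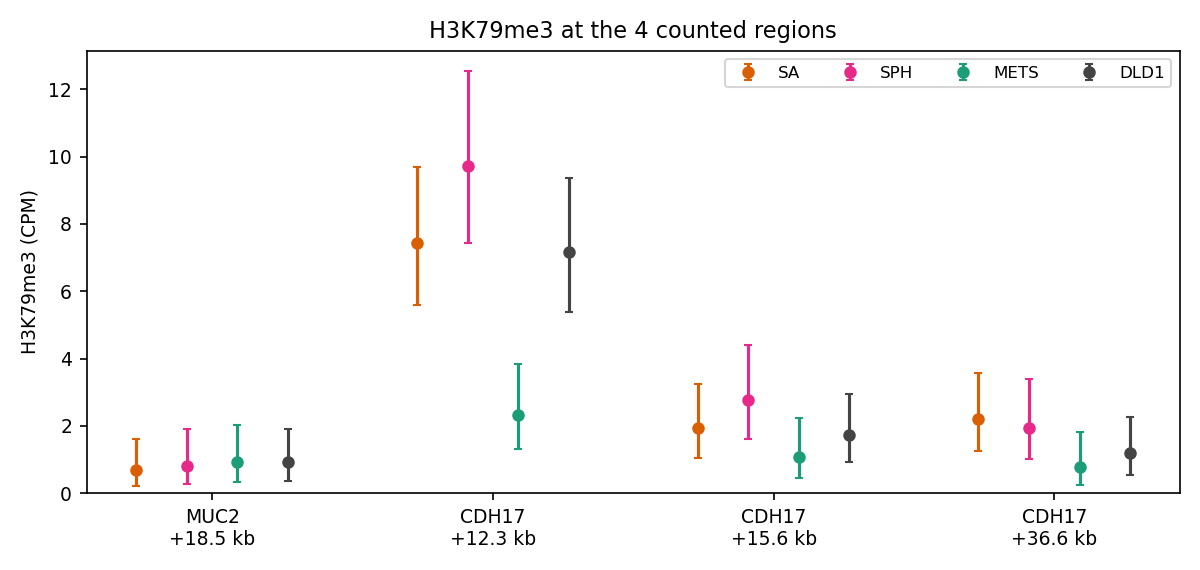
H3K79me3 in CPM at the 4 regions in SA, SPH, METS and DLD1, with the distance of each region's centre from the gene start. Points are single libraries and bars are exact 95% Poisson intervals. METS is the lowest line at each CDH17 region, at 2.33 CPM for the region 12.3 kb into the gene, against 7.18 CPM in DLD1.

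The MUC2 region chr11:1093176-1093533 lay just downstream of the gene's H3K4me3 region. It had 5 counts in SA, 5 in SPH, 6 in METS and 7 in DLD1, and a difference was not detectable at this depth. At 2-fold, 0 of the 4 H3K79me3 regions were called in SA and SPH, where 3.41% and 8.24% of all regions were called in either direction. In METS 1 was called, the lower CDH17 region at 12.1 kb, beside 9.30% of all regions. The median log2 ratio of the 4 was 0.08 in SA, 0.47 in SPH and -0.45 in METS, and over all regions it was -0.02, -0.11 and 0.08. Since 3 of the 4 lie in CDH17, these medians describe mainly that gene.

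**Figure D5:**
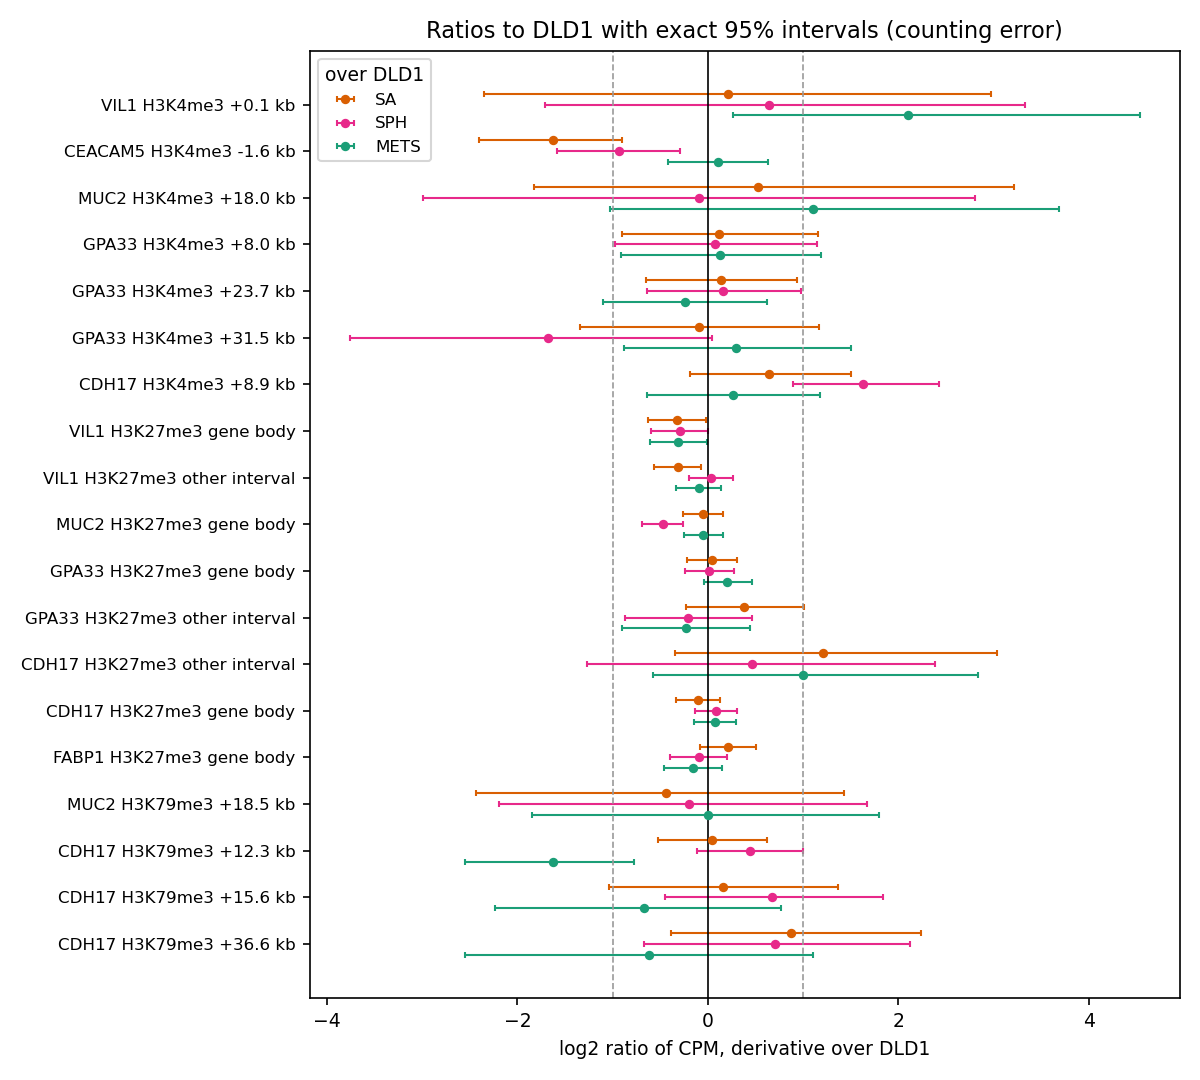
Log2 ratio of CPM over DLD1 for all 19 regions and intervals in SA, SPH and METS, with exact 95% intervals for counting error. Dashed lines mark 2-fold. The intervals of CEACAM5 in SA, CDH17 H3K4me3 in SPH and CDH17 H3K79me3 at 12.3 kb in METS exclude 0. Those of the other CDH17 H3K79me3 regions in METS include 0, and those of the 5 H3K27me3 gene bodies lie within 2-fold.

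The mesenchymal lines were then compared with the epithelial lines in an edgeR quasi-likelihood model over all regions of a mark, each line standing for 1 replicate. The p-values therefore measure how much the 4 lines scatter, not repeated experiments. Both mesenchymal lines lay above both epithelial lines at 2 of the 7 H3K4me3 regions, at CDH17 and the second GPA33 region. They lay below them at 2, at CEACAM5 and the third GPA33 region. Of all regions, 20.7% and 21.0% had such an order. At both GPA33 regions the order lay within counting error. The ratio of SA to DLD1 was 1.10 (0.638 to 1.92) at the second and 0.939 (0.395 to 2.25) at the third. With edgeR, 0 of the 7 passed an adjusted p of 0.05, where 0.298% of all regions did, and 2 of the 7 had an unadjusted p under 0.05, as did 11.0% of all. DESeq2 called 0 of the 7, with 1 at an unadjusted p under 0.05 and 1, at MUC2, without an adjusted p. Over all regions DESeq2 called 37 of 33556, and 1775 of 35629 had an unadjusted p under 0.05.

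The CEACAM5 region had a log2 difference of -1.29, mesenchymal minus epithelial (edgeR adjusted p = 0.214), and was lower in 2 of 2 mesenchymal lines. The CDH17 region had a log2 difference of 1.08 (edgeR adjusted p = 0.371), and was higher in 2 of 2. Without SA, CDH17 passed with 1.49 (edgeR adjusted p = 0.0262), a fit in which SPH was the lone mesenchymal line and was assumed to vary like the others. That fit called 5335 of 35560 regions in all, against 106 of 35629 with the 4 lines, so a call of 1 in 7 lies near its background. Without SPH its log2 difference was 0.50 (edgeR adjusted p = 0.998). For CEACAM5 the adjusted p ranged from 0.148 without SA to 0.945 without METS in edgeR, and the DESeq2 Wald test gave an adjusted p of 0.713.

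For H3K27me3, 0 of the 8 intervals passed, beside 0.637% of all, and 0 had an unadjusted p under 0.05 in edgeR or DESeq2, where edgeR gave such a p at 8.81% of all and DESeq2 at 1315 of 48375. DESeq2 also called 0 of the 8, but 2 of them, the interval at the end of GPA33 and the short one inside CDH17, had no adjusted p. It called 114 of the 14611 intervals to which it gave an adjusted p. MUC2 was the one interval at which both mesenchymal lines lay on the same side of both epithelial lines, below them, as at 26.1% of all intervals. SA and METS were level there, at 22.2 CPM each, and SPH alone was low. The log2 difference was -0.22 (edgeR adjusted p = 0.834), -0.45 without SA (edgeR adjusted p = 0.425) and -0.02 without SPH (edgeR adjusted p = 0.99). For H3K79me3, 0 of the 4 regions passed, as was so for all 156120 regions (0.00%), of which 4675 (2.99%) had an unadjusted p under 0.05, with 0 of the 4 among them. DESeq2 also called 0, in all and of the 4, with 1005 of 156120 at an unadjusted p under 0.05 and 0 of the 4. Both mesenchymal lines lay above both epithelial lines at the 3 CDH17 regions and below them at MUC2. Of all regions, 8.72% and 20.3% had such an order. The 3 regions lie in the same gene, and SA was at 1.03, 1.11 and 1.84 times DLD1 there, within counting error each time. MUC2 held only 5 to 7 counts per line. These orders can therefore not be read as an excess. The log2 difference at the CDH17 region 12.1 kb into the gene was 0.83 (edgeR adjusted p = 1.0), and DLD1 stood close to SA there. It was 1.87 without DLD1 (edgeR adjusted p = 0.366) and 0.25 without METS (edgeR adjusted p = 1.0), so its size rests on METS.

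Likeness between members was measured as the Euclidean distance between their log2 profiles over the 4 lines, and it is a description over 4 points. Regions of a gene were summed, or the gene body taken for H3K27me3, 0.5 CPM was added, and each profile was centred on its mean. H3K4me3 and H3K27me3 each had values at 5 genes. For H3K4me3, MUC2 and GPA33 were closest, at 0.479, while CEACAM5 and CDH17 had no member nearer than 1.20 and 1.23. MUC2 had only 3 to 7 counts per line, 0.419 to 0.959 CPM, so the 0.5 CPM added flattens its profile. Its nearness to GPA33 can therefore not be read as a likeness of the genes. For H3K27me3, GPA33 and CDH17 were closest, at 0.177. Neither gene body differed from DLD1 beyond counting error in any derivative, so the short distance shows only that both profiles were nearly flat.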

How the data were processed

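The authors deposited raw read counts per region for H3K4me3, H3K27me3 and H3K79me3, 1 table per line and mark, as judged from the values: whole numbers with differing column totals. Per the submitters' processing notes the build was hg19. Per the labels' protocols, precipitation and library preparation used a Diagenode kit. Aligner, region caller, counting program, input control and duplicate removal are not given in the sources used here. The H3K27me3 table was held in part, since its last line names 7773 skipped entries, so its CPM cover that part alone.

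Counts were divided by column totals. Ratios carry Clopper-Pearson 95% intervals conditional on both counts, and levels carry exact Poisson intervals, both from SciPy 1.17.1. Whether PCR copies were removed before counting is not known, so intervals cover counting error only. The 2-fold call used 0.5 CPM added. Mesenchymal and epithelial lines were compared with edgeR 4.0.16 (glmQLFit, glmQLFTest, library totals, regions with a count, Benjamini-Hochberg over all regions), and with DESeq2 1.42.0 as an alternative. The edgeR fit and the ratio intervals were tested on simulated data, and DESeq2 was not. Other alternatives were TMM factors, 0.1 or 2 CPM added, regions with a mean of at least 10 counts, no flank, and leaving out each line.

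Members and lists were chosen with earlier results of these data known. All 8 genes were named, and single regions were named when strongest for a gene, most changed per mark and line, or called. Strands came from the RefSeq promoter table, and for VIL1 and CDH17 from general knowledge. A further list of intestinal genes and cell type markers was not evaluated, because no hg19 annotation was used. No batch is named in the labels.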

Additional observations from a re-analysis of the deposited data

How the results depend on the processing

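Counts of the 12 comparisons under the alternatives were equal to those reported, or within 1.5 times of them, at 63 of 69 settings. Most of these 63 were counts of 0 that stayed 0, so the share says little about the stability of the other counts. The exceptions were counts of 0 to 2 regions. Without the flank, SA had 0 H3K4me3 regions past 2-fold, because the CEACAM5 region lies outside the gene. With 2 CPM added, SPH had 1 and METS 0, and with regions of a mean of at least 10 counts METS had 0, since the VIL1 region is that weak. With 0.1 CPM added, SA had 1 H3K27me3 interval, the short one inside CDH17. Leaving out each line in turn gave 0 to 1 H3K4me3 regions of the genes called in edgeR. Log2 ratios per gene stayed within their counting intervals at all 69 settings with TMM factors or no flank. The values without the flank could not move, because the regions behind them all overlap their genes. CEACAM5, whose region lies in the flank alone, has no such value. TMM factors shift all regions of a line and mark alike, so these settings do not test the stability of single genes. Over all regions, edgeR called 106 for H3K4me3, against 15 with TMM factors, 37 with DESeq2 and 58 to 5335 without 1 line. For H3K27me3 it called 308, against 8 with the filter on mean counts, 114 with DESeq2 and 200 to 1243 without 1 line. For H3K79me3 it called 0, against 0 to 345 without 1 line. The causes of these shifts were not tested. Depth limits the VIL1 and MUC2 regions, which hold 14 counts or fewer in every line for H3K4me3. No paired analysis was possible because the labels give no replicate numbers shared between groups.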

Other observations

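For each gene and mark, the nearest region beyond the 2 kb flank was read as well, and those given here were singled out after their values were seen. The H3K79me3 region nearest to MUC2, chr11:1152618-1153057, lay 48.2 kb beyond the gene and had 9 counts in SA, 6 in SPH, 78 in METS and 21 in DLD1. METS was 4.34-fold above DLD1 (2.65 to 7.41), and SPH was at 0.349 times DLD1 (0.115 to 0.893). In RefSeq order the coding gene after MUC2 is MUC5AC, a gastric-type secreted mucin, and the overlap of this region with it was not analysed here. The H3K27me3 interval nearest to CDH17, 22.8 kb away, had 117 counts in METS and 54 in DLD1, a ratio of 1.67 (1.20 to 2.35).

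Besides the region upstream of CEACAM5, the nearest H3K4me3 region to that gene lay 129900 bases away, with 131.8 CPM in SA, 119.5 in SPH, 129.8 in METS and 122.3 in DLD1. The H3K27me3 interval nearest to FABP1, 9.60 kb away, was at 0.730 times DLD1 in SPH (0.661 to 0.806), while the FABP1 gene body was at 0.937 times DLD1 in the same line (0.761 to 1.15).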
